A study of Mus musculus with 12 samples.

Results

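The 9 genes described here handle glucocorticoid and thyroid hormones in hippocampal astrocytes: the receptors Nr3c1 and Nr3c2, the receptor targets Fkbp5 and Tsc22d3, the steroid-activating enzyme Hsd11b1, the thyroid hormone transporter Slco1c1, the deiodinase Dio2, and the receptors Thra and Thrb. They were chosen by symbol, each matched 1 row, and they are 9 of the 56941 genes in the deposited table. Flow sorting on the astrocyte marker ACSA-2 had isolated the cells from hippocampi of adult naive male mice. The samples labelled Ctrl carried the floxed Tnfrsf1b gene alone (genotype Tnfrsf1bfl/fl), and those labelled cKO carried the same floxed gene together with GfapcreERT2, an inducible Cre recombinase driven by the Gfap promoter. Tnfrsf1b encodes the TNF receptor TNFR2, both groups carry its floxed alleles, and the age in weeks, the inducing treatment and any pooling of animals are not given in the sources used here. The 12 libraries comprised an S1 and an S2 library for A1, A2 and A8 (Ctrl) and for A4, A9 and A10 (cKO). The labels define neither letter, so the S1 and S2 values of each A number entered as their mean, called a unit here, giving 3 units of each genotype. Nothing states that the units are separate animals, so p-values measure the spread between these units only.

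Glucocorticoids enter cells freely and bind 2 nuclear receptors, the mineralocorticoid receptor at low hormone and the glucocorticoid receptor as hormone rises with stress or the daily cycle. The enzyme encoded by Hsd11b1 regenerates active corticosterone inside the cell, and the bound receptor induces genes such as Fkbp5 and Tsc22d3, the first of which feeds back to lower receptor affinity. Thyroid hormone reaches the brain mainly as the precursor thyroxine, which transporters such as that encoded by Slco1c1 carry across membranes. Astrocytes convert thyroxine to active triiodothyronine with the deiodinase encoded by Dio2 and thereby supply neurons, and the hormone acts through the nuclear receptors encoded by Thra and Thrb.

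Promoter sequence is shown for 4 of the genes: Dio2 and Thrb, whose windows held the cAMP and the thyroid hormone receptor motif, Fkbp5, the member with the lowest level, and Hsd11b1, the tested member with the largest difference between genotypes. RefSeq windows in GRCm38.p6 were found for 7 of the 9 genes (Nr3c2, Fkbp5, Tsc22d3, Hsd11b1, Dio2, Slco1c1 and Thrb; 10 windows, since Thrb and Tsc22d3 have several starts), and not for Nr3c1 and Thra. Each runs over the 250 bases before the transcription start, 5′ to 3′ on the gene's strand, with motif matches in capitals. The windows are chr12:90739039-90739288 (minus strand), chr14:17660710-17660959 (plus strand), chr17:28486150-28486399 (minus strand) and chr1:193242361-193242610 (minus strand).
Dio2: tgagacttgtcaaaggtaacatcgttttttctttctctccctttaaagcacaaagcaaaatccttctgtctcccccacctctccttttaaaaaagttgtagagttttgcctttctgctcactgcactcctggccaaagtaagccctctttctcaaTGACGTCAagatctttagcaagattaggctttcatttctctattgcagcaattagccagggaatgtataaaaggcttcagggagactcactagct
Thrb: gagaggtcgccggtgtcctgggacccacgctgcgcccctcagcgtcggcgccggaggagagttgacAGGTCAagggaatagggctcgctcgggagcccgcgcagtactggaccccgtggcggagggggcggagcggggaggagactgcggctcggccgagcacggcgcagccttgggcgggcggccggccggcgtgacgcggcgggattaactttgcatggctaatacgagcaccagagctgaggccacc
Fkbp5: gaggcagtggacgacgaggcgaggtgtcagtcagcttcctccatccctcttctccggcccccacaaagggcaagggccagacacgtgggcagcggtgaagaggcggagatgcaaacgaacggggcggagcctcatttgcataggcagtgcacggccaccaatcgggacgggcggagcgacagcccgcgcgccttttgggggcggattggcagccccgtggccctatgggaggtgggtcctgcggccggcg
Hsd11b1: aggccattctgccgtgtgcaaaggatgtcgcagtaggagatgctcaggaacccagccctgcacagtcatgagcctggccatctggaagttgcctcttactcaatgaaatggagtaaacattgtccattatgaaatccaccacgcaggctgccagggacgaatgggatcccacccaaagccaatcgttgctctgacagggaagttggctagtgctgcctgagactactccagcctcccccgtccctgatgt
The capitals in Dio2 mark TGACGTCA, the palindromic cAMP response element, which 1.55% of 32851 RefSeq promoter windows of the same length held. Those in Thrb mark AGGTCA, the core hexamer bound by thyroid hormone receptors and other nuclear receptors, which 14.0% of windows held on either strand. The full palindrome of the glucocorticoid response element was in 0 of the 10 windows, against 0.387% of all windows, and the single-receptor hexamer AGAACA was in 1 window of Tsc22d3 and in the second window of Thrb, against 16.1%. Both strands were searched, and the windows of Fkbp5 and Hsd11b1 held no match to any of these motifs. A match is a description of these letters, and elements farther from the start were not searched.

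Depth was recovered from the steps between low values and ran from 17311872 to 31499016 reads in Ctrl libraries and from 17451195 to 35323322 in cKO libraries. Tnfrsf1b was at 0 reads in 9 libraries and was highest in both libraries of A4, labelled cKO (10 and 22 reads, 0.119 and 0.163 FPKM), so its loss could not be checked at this depth and the groups are called by their labels. Gfap, whose promoter directs the Cre, was at 78.5 ± 29.0 FPKM in the Ctrl units and 117 ± 33.9 FPKM in the cKO units (SD, n = 3). The 12 astrocyte markers summed to 3908 to 4813 FPKM per unit in Ctrl and 4685 to 5354 FPKM in cKO, and all were detected. Markers of other cells were present too: the 12 oligodendrocyte markers summed to 1096 to 2354 FPKM in Ctrl and 313 to 753 FPKM in cKO. Endothelial markers ran from 6.06 to 73.0 FPKM in Ctrl and 7.19 to 53.5 FPKM in cKO, choroid plexus markers from 65.1 to 194 and from 23.7 to 557 FPKM, and microglial markers from 3.74 to 4.68 and from 6.57 to 17.6 FPKM. Ctrl A8 stood apart from A1 and A2 in its immediate-early gene score (3.80 against 5.63 and 5.78 on the log2 scale, with cKO at 3.44 to 4.57). In such bulk samples fewer cells of a type and less RNA per cell cannot be told apart.

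The level of each gene is given as FPKM, fragments scaled to exonic length and library size, so that levels can be compared between genes. Slco1c1 was the most abundant of the 9, with 69.0 ± 12.4 FPKM over the 6 units, above 98.1% of the 17540 genes that reached a mean of 1 FPKM. Dio2 (56.6 ± 5.83), Tsc22d3 (38.7 ± 9.63), Nr3c1 (33.9 ± 2.73), Hsd11b1 (31.5 ± 10.1) and Thra (26.1 ± 3.73 FPKM) followed, and the ranges of neighbouring genes in this order overlapped from Slco1c1 down to Thra. Nr3c2 (10.6 ± 1.11) and Thrb (8.67 ± 1.08 FPKM) formed a lower pair whose ranges also overlapped with each other but not with Thra above. Fkbp5 came last at 0.255 ± 0.278 FPKM (all SD, n = 6 units). By mean level the transporter and the deiodinase of thyroid hormone were the top pair, but in A2 Tsc22d3 (52.65 FPKM) was above Slco1c1 (48.72 FPKM). The glucocorticoid target Fkbp5 was the single member under 1 FPKM, so 8 of the 9 members were tested across genotypes.

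**Figure D1:**
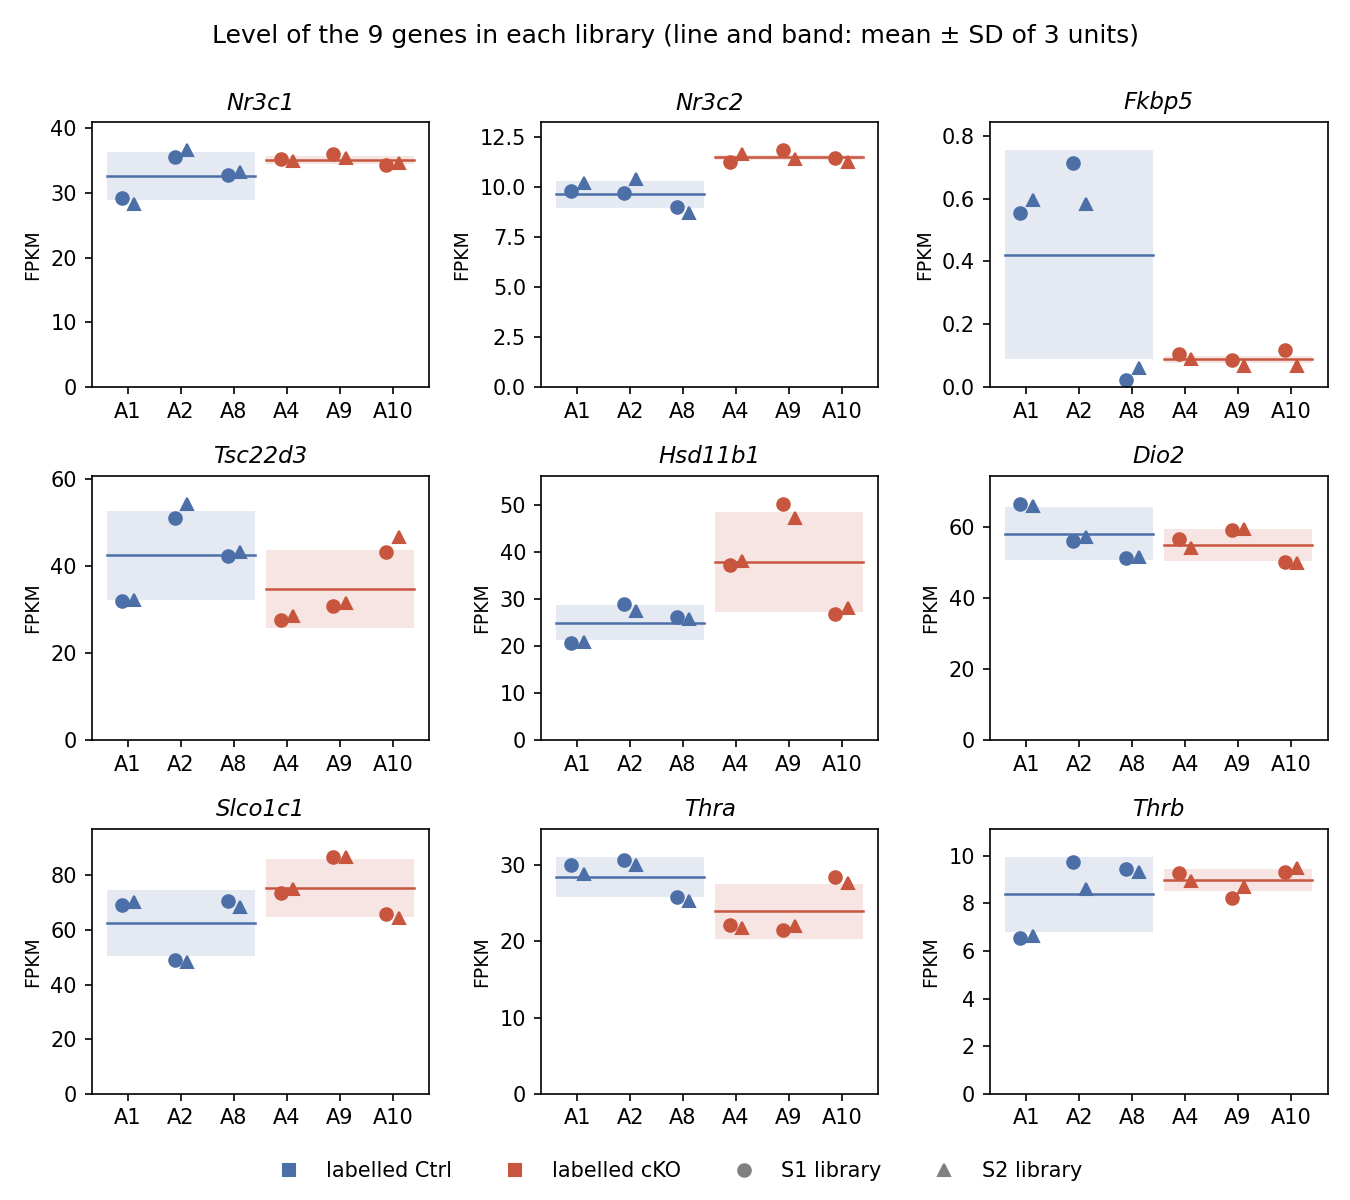
Level of each of the 9 genes in FPKM (vertical axis, linear from 0) in each library, by A number (horizontal axis). Circles are S1 and triangles S2 libraries, and lines and bands are the mean ± SD of the 3 units of a group. For Nr3c2 the 6 cKO libraries lie above the 6 Ctrl libraries, and Fkbp5 is high in A1 and A2 alone.

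The comparison of cKO with Ctrl asked whether these transcripts differed between the labelled genotypes. With limma on log2(FPKM + 1) and Benjamini-Hochberg adjustment over 17540 genes, 0 of the 8 tested members had an adjusted p under 0.05, where 0% of all tested genes did. At an unadjusted p under 0.05 there was 1 member, Hsd11b1, against 7.69% of all tested genes (2.98% with the higher mean in cKO). The units of the groups did not overlap for 1 member, Nr3c2, against 13% of all tested genes (5.76% with cKO the higher group). Both counts are close to their background and are no result about the members. Of the 8, 5 had a higher and 3 a lower mean in cKO, with a median difference of 0.11 on the log2 scale, where the median over all tested genes was -0.01. The mean log2 score of the 12 astrocyte markers was 7.61 to 7.84 in Ctrl and 7.89 to 8.01 in cKO. Of these markers, 11 had a higher and 1 a lower mean in cKO. Microglial and oligodendrocyte precursor marker sums did not overlap either, and the part of these 3 cell types in the member values was not tested. The oligodendrocyte marker sum also differed between the groups without overlap. So did the mean log2 score of these markers (5.57 to 6.63 in Ctrl and 3.90 to 5.20 in cKO). A fit on 6 units can therefore hardly part this score from genotype. With its score as a covariate, Hsd11b1 was at 0.08 and the signs of Tsc22d3 (0.22), Slco1c1 (-0.13) and Thra (0.21) turned, while Nr3c2 was at 0.35.

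**Figure D2:**
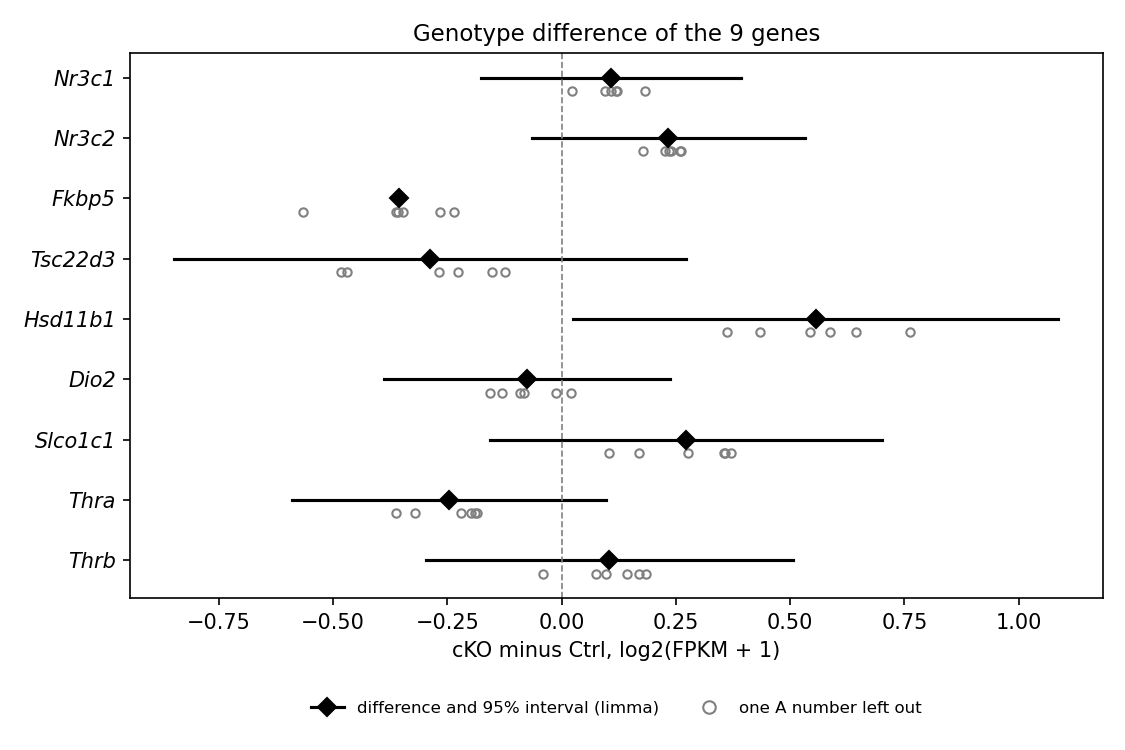
Difference between cKO and Ctrl in log2(FPKM + 1) (horizontal axis) for each gene (vertical axis). Diamonds are differences of 3 against 3 units, lines their 95% limma intervals (none for Fkbp5, which was not tested), and open circles the difference with each A number left out. The interval of Hsd11b1 runs from 0.03 to 1.09 and those of the other 7 tested genes span 0.

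Nr3c1 (ENSMUSG00000024431; chromosome 18, start 39543598, end 39652474, minus strand), the glucocorticoid receptor, is given, like every gene here, with the coordinates of the deposited table, which did not match GRCm38 for any of the 9 genes. In the S1 and S2 libraries Nr3c1 was at 29.2 and 28.3 FPKM in A1, 35.6 and 36.6 in A2 and 32.8 and 33.3 in A8. It was at 35.3 and 34.9 FPKM in A4, 36.0 and 35.5 in A9 and 34.3 and 34.7 in A10. The cKO units lay within the Ctrl range, with A1 as the single low unit. The Nr3c1 means were 32.6 ± 3.70 and 35.1 ± 0.632 FPKM (SD, n = 3 each), a log2 difference of 0.11 (SE 0.12, limma adjusted p = 0.911), which was 0.02 without A1 and 0.18 without A2.

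Nr3c2 (ENSMUSG00000031618; chromosome 8, start 77626070, end 77971641, plus strand), the mineralocorticoid receptor, which binds corticosterone with higher affinity, was the member whose groups stood apart. Its libraries read 9.83 and 10.2 FPKM in A1, 9.71 and 10.4 in A2 and 9.02 and 8.69 in A8. In cKO they read 11.3 and 11.7 FPKM in A4, 11.9 and 11.4 in A9 and 11.5 and 11.3 in A10. All 6 cKO libraries were above all 6 Ctrl libraries, and the cKO units lay close together. The means were 9.65 ± 0.688 FPKM in Ctrl, against 11.5 ± 0.125 FPKM in cKO (SD, n = 3 each), 1.19-fold, with a two-sided exact permutation p of 0.1, the smallest that 3 against 3 units allow. The log2 difference was 0.23 (SE 0.13, limma adjusted p = 0.755), and it ran from 0.18 to 0.26 with 1 A number left out. Groups that do not overlap stay apart when any unit is left out, so their staying apart adds no support. The per-length ratio of Nr3c1 to Nr3c2, which does not depend on scaling, was 2.87, 3.59 and 3.73 in A1, A2 and A8 and 3.06, 3.07 and 3.03 in A4, A9 and A10. The cKO ratios lay inside the Ctrl range (exact permutation p = 0.4, two-sided, n = 3 each, on a ratio chosen after its values were seen).

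Hsd11b1 (ENSMUSG00000016194; chromosome 1, start 192903942, end 192946383, minus strand) encodes 11-beta-hydroxysteroid dehydrogenase type 1, the enzyme that returns inert 11-dehydrocorticosterone to corticosterone. Its Ctrl libraries held 20.8 and 20.9 FPKM in A1, 29.0 and 27.4 in A2 and 26.2 and 25.8 in A8. The cKO libraries held 37.3 and 38.0 FPKM in A4, 50.2 and 47.3 in A9 and 26.8 and 28.2 in A10. A4 and A9 were above every Ctrl unit, and A10 was below A2, so the groups overlapped by that pair. The mean was 25.0 ± 3.79 FPKM in Ctrl, against 38.0 ± 10.6 FPKM in cKO (SD, n = 3 each), 1.52-fold, and the log2 difference of 0.56 (SE 0.22, limma adjusted p = 0.629) was the largest of the tested members. Without A9 it was 0.36 and without A10 it was 0.76. H6pd, which supplies NADPH to this enzyme, ran from 0.428 to 1.87 FPKM over the 6 units, and Hsd11b2, the inactivating enzyme, had 0 reads in both libraries of A1 and A9 and at most 81 elsewhere.

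Of the receptor targets, Fkbp5 had the lowest mean of the 9 members (0.255 FPKM), and Tsc22d3 came after Slco1c1 and Dio2 (38.7 FPKM). Fkbp5 (ENSMUSG00000024222; chromosome 17, start 28618068, end 28736501, minus strand) encodes an immunophilin co-chaperone that lowers the hormone affinity of the glucocorticoid receptor. It had 100 and 176 reads in A1 (0.555 and 0.597 FPKM), 117 and 155 in A2 (0.714 and 0.583 FPKM), but 4 and 18 in A8 (0.0216 and 0.0604 FPKM). The cKO libraries had 22 and 30 reads in A4, 14 and 18 in A9 and 20 and 18 in A10, or 0.0653 to 0.117 FPKM. A floor of 3 reads corresponds to 0.00897 to 0.0183 FPKM, so Fkbp5 was above the floor in every library, counting error only. Ctrl A1 and A2 were above all cKO units and Ctrl A8 was below all of them, so the group means of 0.422 ± 0.332 and 0.0884 ± 0.0111 FPKM (SD, n = 3 each) do not describe 2 separate groups (exact permutation p = 0.4, two-sided). Without A8 the difference moved from -0.36 to -0.57 on the log2 scale, and without A2 it was -0.23. The units left without A8 did not overlap, which held for 33.4% of all tested genes too. The oligodendrocyte markers and the immediate-early score were also highest in A1 and A2, and their part in the Fkbp5 values was not tested. The 3 tested genes with the most similar profile over the 6 units were Gm50313, Gm48650 and Gm26132 (Pearson r 0.997, 0.996 and 0.995), which share the high A1 and A2 libraries and values near 0 elsewhere. They are the highest of 17540 genes over 6 units and passed the filter through A1 and A2, so an r near 1 adds no support. Their S1 and S2 libraries also differed, with Gm48650 at 2.695 and 6.997 FPKM in A1.

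Tsc22d3 (ENSMUSG00000031431; chromosome X, start 139440277, end 139501408, minus strand), also called Gilz, a leucine zipper protein that mediates anti-inflammatory actions of glucocorticoids, followed another order. It stood at 32.1 and 32.3 FPKM in A1, 51.0 and 54.3 in A2 and 42.3 and 43.4 in A8. In cKO it stood at 27.5 and 28.6 FPKM in A4, 30.8 and 31.5 in A9 and 43.2 and 46.7 in A10. A4 and A9 were the lowest units, A10 lay above A8, and the groups overlapped. The means were 42.6 ± 10.2 FPKM in Ctrl, against 34.7 ± 9.01 FPKM in cKO (SD, n = 3 each), a log2 difference of -0.29 (SE 0.24, limma adjusted p = 0.869). It was -0.12 without A2 and -0.15 without A4, and -0.47 without A1 and -0.48 without A10. Its S2 libraries were above its S1 libraries in 6 of 6 A numbers, where 6.84% of all tested genes went 1 way in all 6, with a log2 difference of 0.05 (SE 0.02, limma adjusted p = 0.306).

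Among 22 further genes that glucocorticoids induce in many tissues, 20 were tested. Over all tested genes 8918 of 17540 had a lower mean in cKO, the background for this and the following lists. Units without overlap have a background too, 7.22% of all tested genes with cKO lower and 5.76% with cKO higher. Of the 20, 15 had a lower and 5 a higher mean in cKO, with a median of -0.41 on the log2 scale, and 0 had a limma adjusted p under 0.05. At an unadjusted p under 0.05 there were 2, both lower in cKO (4.71% of all tested genes), Sgk1 and Errfi1. Sgk1, a kinase that regulates ion channels and transporters, had unit values of 10.4, 40.6 and 8.12 FPKM in A1, A2 and A8 and of 3.58, 2.96 and 7.82 FPKM in A4, A9 and A10. Its groups did not overlap, but A2 was far above the rest, and the log2 difference was -1.59 (SE 0.60, limma adjusted p = 0.607). Without A2 it was -0.91, and its sign turned with the oligodendrocyte score as a covariate (0.28). Errfi1, an inhibitor of EGF receptor signalling, averaged 7.63 ± 2.30 FPKM and 4.60 ± 0.824 FPKM in Ctrl and cKO (log2 difference -0.60, SE 0.24, limma adjusted p = 0.630). Per1, a clock repressor that the hormone also induces, averaged 21.2 ± 2.5 and 14.96 ± 5.20 FPKM (SD, n = 3 each, limma adjusted p = 0.681), with A10 at 20.9 FPKM inside the Ctrl range. The list did not move as 1 block, since the metallothionein gene Mt1 was at 655 ± 123 FPKM in Ctrl, against 694 ± 18.0 FPKM in cKO and the transcription factor gene Klf15 at 27.9 ± 8.66 and 27.8 ± 2.59 FPKM. A2 was the highest unit for 12 of the 20 genes, A9 the lowest for 8 and A4 the lowest for 6, and A10 was lowest for 0. The immediate-early score was also highest in A2 (5.78) and lowest in A9 (3.44), while A4 (4.57) was above A8 (3.80). The parallel itself was not tested, though the alternatives included a fit with the immediate-early score as a covariate. The 15 genes with a lower mean in cKO became 3 with the oligodendrocyte score as a covariate. That score separated the groups without overlap, so the fit can hardly part it from genotype. Lcn2 was listed at 0 in all 12 libraries.

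**Figure D3:**
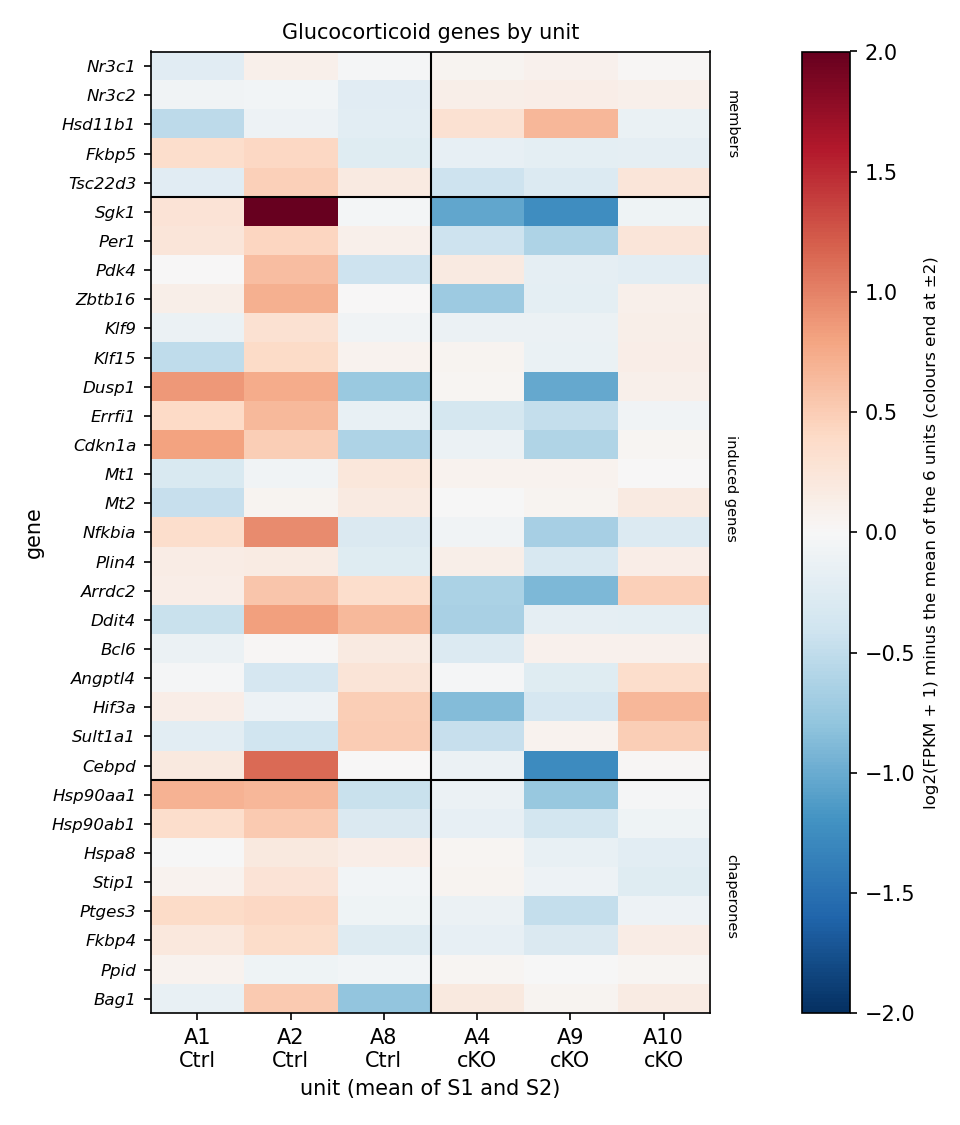
Deviation of each gene from its mean over the 6 units, in log2(FPKM + 1) (colour), by gene (vertical axis) and unit (horizontal axis), for 5 members, 20 tested glucocorticoid-induced genes and 8 receptor chaperones. The darkest red cell is Sgk1 in A2 at 40.6 FPKM, and A9 and A4 are the lowest unit for 8 and 6 of the induced genes.

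The chaperones that hold the glucocorticoid receptor in a hormone-binding state were abundant. Of 8 tested, 6 had a lower and 2 a higher mean in cKO, with a median of -0.21 on the log2 scale and 0 at a limma adjusted p under 0.05. Ptges3, the p23 co-chaperone, averaged 62.8 ± 11.6 FPKM in Ctrl, against 44.7 ± 6.37 FPKM in cKO without overlap of the units (log2 difference -0.47, SE 0.18, limma adjusted p = 0.607). Hsp90ab1, the constitutive HSP90, averaged 225 ± 61.7 and 167 ± 16.5 FPKM, and A8 at 156 FPKM was inside the cKO range. Hspa8, the constitutive HSC70, averaged 137 ± 9.42 and 118 ± 10.7 FPKM (SD, n = 3 each). Among genes of steroid access and metabolism 4 of 8 were tested, 2 higher and 2 lower in cKO, with 0 past the threshold. Cyp7b1, a hydroxylase of oxysterols and neurosteroids, ran from 16.5 to 44.0 FPKM in Ctrl and from 29.4 to 48.1 FPKM in cKO. Srd5a1, a steroid reductase, averaged 2.37 ± 1.26 and 1.05 ± 0.616 FPKM. Abcb1a, the efflux pump of the blood-brain barrier, was at 6.60 and 6.85 FPKM in A1 and A2 and 6.16 FPKM in A4 but at most 0.922 FPKM in A8, A9 and A10. A1, A2 and A4 were also the units with the highest endothelial marker sums (73.0, 40.8 and 53.5 FPKM, against at most 7.99 FPKM in the others), and the part of endothelial RNA in the Abcb1a values was not tested.

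Slco1c1 (ENSMUSG00000030235; chromosome 6, start 141470094, end 141515903, plus strand) encodes OATP1C1, a high-affinity transporter of thyroxine in astrocytes and brain endothelium. Its libraries read 69.2 and 70.4 FPKM in A1, 49.0 and 48.5 in A2 and 70.6 and 68.3 in A8, against 73.5 and 75.2 in A4, 86.6 and 86.6 in A9 and 65.9 and 64.5 FPKM in A10. A2 was low and A9 high, and A10 lay below A1 and A8. The means were 62.7 ± 12.1 FPKM in Ctrl, against 75.4 ± 10.7 FPKM in cKO (SD, n = 3 each; log2 difference 0.27, SE 0.18, limma adjusted p = 0.828). Without A2 the difference was 0.10 and without A9 it was 0.17. The endothelial marker sum was 73.0, 40.8 and 6.06 FPKM in A1, A2 and A8 and 53.5, 7.99 and 7.19 FPKM in A4, A9 and A10, and its part in the Slco1c1 values was not tested.

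Dio2 (ENSMUSG00000007682; chromosome 12, start 90691326, end 90705812, minus strand), the type 2 deiodinase, varied least between units after Nr3c1 (coefficients of variation 10.3% and 8.06%). It stood at 66.7 and 66.0 FPKM in A1, 56.1 and 57.3 in A2 and 51.5 and 51.6 in A8. In cKO it stood at 56.7 and 54.3 FPKM in A4, 59.3 and 59.4 in A9 and 50.3 and 50.1 in A10. The groups interleaved, with A1 highest and A10 lowest. The means were 58.2 ± 7.496 and 55.0 ± 4.59 FPKM (SD, n = 3 each), and the log2 difference of -0.08 had a 95% interval from -0.39 to 0.24 (limma adjusted p = 0.954). Its sign turned under upper quartile scaling (0.0025) and without A1 (0.021), it was -0.01 without A10, -0.13 without A9 and -0.16 without A8, and the interval does not show that the groups were alike. The tested genes with the most similar profile over the 6 units were Pgap1, Mycbp2 and Gm43863 (Pearson r 0.993, 0.990 and 0.987 across units). These too were picked as the highest of 17540 genes, so r adds no support. The inactivating deiodinase Dio3 had reads in A9 alone (8 and 24), and Dio1 was listed at 0 in all 12 libraries.

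Of the other genes of thyroid hormone transport and binding, 6 of 11 were tested, 3 higher and 3 lower in cKO, with 0 at a limma adjusted p under 0.05. Slc3a2, the heavy chain of the amino acid exchangers that also carry the hormone, averaged 49.96 ± 2.31 and 57.5 ± 4.57 FPKM with no overlap of the units (limma adjusted p = 0.764). Its partner chain gene Slc7a5 averaged 16.02 ± 6.08 and 17.6 ± 1.51 FPKM (SD, n = 3 each; limma adjusted p = 0.937), and its higher mean in cKO turned without A8, the single low unit.

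Thra (ENSMUSG00000058756; chromosome 11, start 98631464, end 98659832, plus strand), the predominant thyroid hormone receptor of the brain, read 30.0 and 28.8 FPKM in A1, 30.6 and 30.0 in A2 and 25.7 and 25.2 in A8. Its cKO libraries read 22.1 and 21.7 FPKM in A4, 21.5 and 22.03 in A9 and 28.4 and 27.6 in A10. A4 and A9 were below every Ctrl unit, while A10 was above A8. The means were 28.4 ± 2.58 FPKM in Ctrl, against 23.9 ± 3.59 FPKM in cKO (SD, n = 3 each), a log2 difference of -0.25 (SE 0.15, limma adjusted p = 0.784). Without A8 the remaining units did not overlap (33.4% of all tested genes), and the same held without A10 (21.8% of all tested genes). The deposited values do not separate the hormone-binding form of Thra from its splice variant that binds no hormone, and the values cover both.

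Thrb (ENSMUSG00000021779; chromosome 14, start 4431611, end 4809435, minus strand in the deposited table), the second receptor gene, was at 6.54 and 6.62 FPKM in A1, 9.74 and 8.58 in A2 and 9.44 and 9.29 in A8. In cKO it was at 9.25 and 8.91 FPKM in A4, 8.23 and 8.68 in A9 and 9.29 and 9.49 in A10. A1 was low and the other 5 units lay close together. The means were 8.37 ± 1.56 and 8.98 ± 0.476 FPKM (SD, n = 3 each; log2 difference 0.10, SE 0.17, limma adjusted p = 0.946), and without A1 the sign turned to -0.04. It was 0.17 without A2 and 0.19 without A8. The Thra to Thrb ratio per length was 4.47, 3.31 and 2.72 in A1, A2 and A8 and 2.41, 2.57 and 2.99 in A4, A9 and A10. Thra exceeded Thrb in 6 of 6 units, and the ratios of the groups overlapped (exact permutation p = 0.2, two-sided, n = 3 each, on a ratio chosen after its values were seen).

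Of 11 receptor partners and cofactors, 10 were tested, and 9 of them had a lower mean in cKO, and the median was -0.05 on the log2 scale. Rxra, the retinoid X receptor that pairs with the thyroid hormone receptors, had 4.86, 5.95 and 5.90 FPKM in A1, A2 and A8 and 3.17, 3.51 and 4.05 FPKM in A4, A9 and A10. The units did not overlap, against 7.22% of all tested genes in that direction, and the log2 difference was -0.52 (SE 0.17, limma adjusted p = 0.531). Ncoa3, a coactivator, averaged 7.18 ± 0.391 and 5.32 ± 0.540 FPKM, also without overlap (log2 difference -0.37, SE 0.15, limma adjusted p = 0.626). Hdac3, the deacetylase of the corepressor complex, averaged 12.5 ± 1.97 and 10.5 ± 1.81 FPKM (SD, n = 3 each; limma adjusted p = 0.862).

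Of 7 genes that thyroid hormone induces, 6 were tested, 2 with a higher and 4 with a lower mean in cKO, and 0 had a limma adjusted p under 0.05. Hr, a corepressor and direct target in brain, had 4.39, 3.09 and 4.24 FPKM in A1, A2 and A8 and 1.57, 0.913 and 2.56 FPKM in A4, A9 and A10, with no overlap (log2 difference -0.91, SE 0.29, limma adjusted p = 0.502). Thrsp, a lipogenic target, had the opposite sign, with 23.1 ± 8.45 FPKM in Ctrl, against 36.2 ± 6.09 FPKM in cKO (SD, n = 3 each; log2 difference 0.67, SE 0.26, limma adjusted p = 0.621), and A8 at 32.5 FPKM lay inside the cKO range. The Thrsp difference was 0.44 without A1, and its sign turned with the oligodendrocyte score as a covariate (-0.28). Mbp, a myelin gene that the hormone also induces, averaged 88.7 ± 26.4 and 28.4 ± 10.9 FPKM (log2 difference -1.63, SE 0.31, limma adjusted p = 0.320). Mbp is itself among the 12 oligodendrocyte markers, all of which had a lower mean in cKO at an unadjusted limma p under 0.05. Their score includes Mbp and separates the genotypes. The fit with that score as a covariate therefore cannot measure their part in the values of Mbp and Hr.

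**Figure D4:**
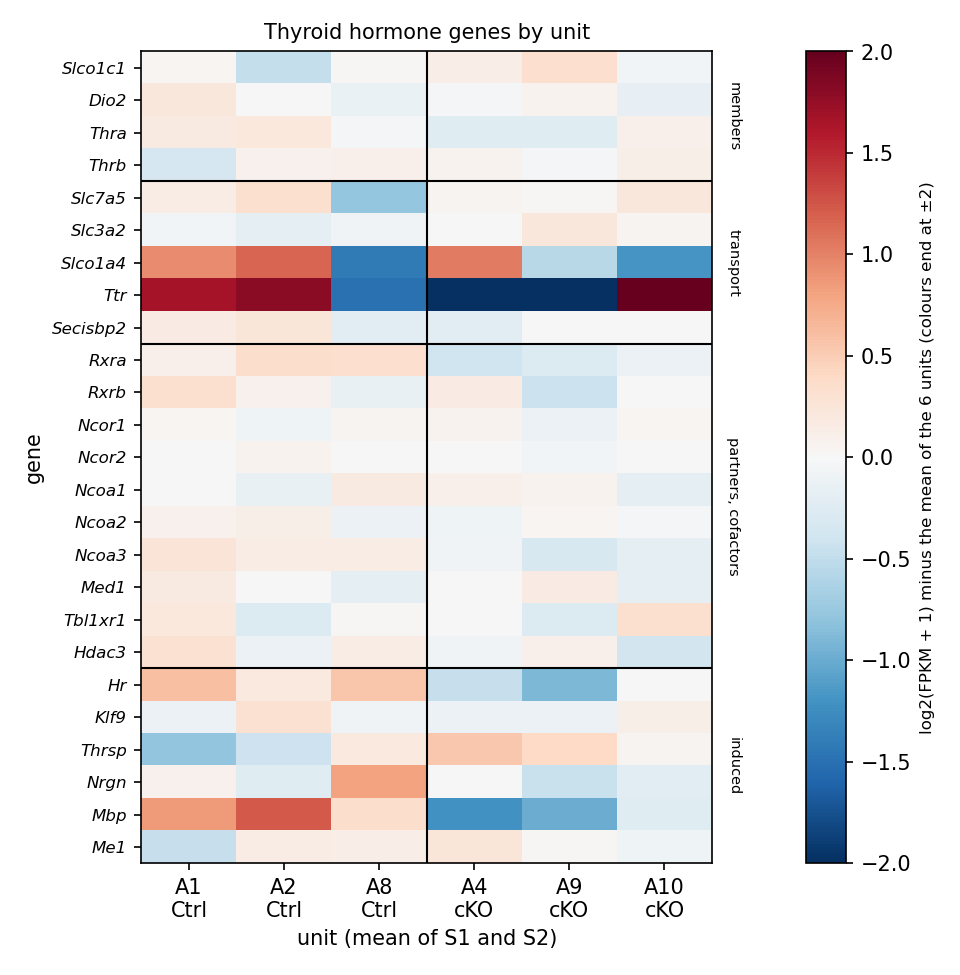
Deviation of each gene from its mean over the 6 units, in log2(FPKM + 1) (colour), by gene (vertical axis) and unit (horizontal axis), for 4 members and 5 genes of thyroid hormone transport with the tested receptor partners and targets. Ttr, a choroid plexus transcript, spans the colour scale, from 0.259 FPKM in A9 to 433 FPKM in A10, while the 4 members stay pale.

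Between S2 and S1 libraries of an A number, 0 of the 8 tested members had a limma adjusted p under 0.05 with the A number as a block, against 1.39% of all tested genes. The largest such difference was the 0.05 of Tsc22d3, so the averaged units rest on libraries that differed little for these genes. The interaction of genotype with S tested for a genotype effect that differs between the library series, and 0 members and 0% of all tested genes passed under limma. At an unadjusted p under 0.05 the interaction gave 0 of the 8 members and 4.74% of all tested genes.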

How the data were processed

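RNA sequencing values of 12 libraries were analysed as FPKM, as deposited by the authors. Per the file headers the table also gives exonic length in bases. STAR, featureCounts and DESeq2 and the builds mm10 and GRCm38 are listed, per the submitters' processing notes, without roles or versions. Of 51948 genes matched to GENCODE M21 (GRCm38), 2.77% had the same start and end, so coordinates are those of the deposited table. Rows sharing 1 of 147 symbols were summed. Depth was recovered from steps between low values, with a pair taken as 2 reads; 82.8% to 86.3% of values above 0 were whole within 0.02 of a read. Floors of 3 reads cover counting error only, and limma intervals reflect the spread between units.

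Across genes r was 0.980 to 0.984 between the S1 and S2 libraries of 1 A number and 0.788 to 0.896 otherwise, so both were averaged on the log2(FPKM + 1) scale, which understates changes of low genes. The 17540 genes whose mean reached 1 FPKM were tested with limma 3.58.1 in R 4.3.3 (eBayes with trend, two-sided, Benjamini-Hochberg over all tested genes, threshold 0.05). Single values used exact permutation tests (scipy 1.17.1, Python 3.11.15). The interaction used the variance trend over mean expression. The replicate number marks S1 or S2; the S2-to-S1 change had an r of 0.133 to 0.190 between any pair of A numbers, so S is shared between genotypes, and averaging balances it.

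The members and lists were chosen with earlier results of these data known. Named genes are the 9 members, Tnfrsf1b and Gfap, from each of 6 pathway lists the 3 smallest unadjusted p, and the 3 genes with the profile most like Fkbp5 and Dio2; 1 gene that this rule picks is not reported here; other genes named (Abcb1b, H6pd, Hsd11b2, Mt1, Klf15, Lcn2, Dio1, Dio3 and Ttr) were chosen after their values were seen. On simulated data the genotype test recovered 87 of 200 genes changed by 2 on the log2 scale and 0 of 200 changed by 1 (17540 genes). Alternatives varied the pseudocount, the filter, the scaling, the variance model, the libraries and covariates.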

Additional observations from a re-analysis of the deposited data

Results flagged for a closer look

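Abcb1b, a drug and steroid efflux pump gene, was left out of the genotype test for its low level but was above the control level in every cKO library. The lowest cKO library was at 0.707 FPKM and the highest Ctrl library at 0.658 FPKM. Its reads ran from 101.5 to 241 in the cKO libraries and from 64 to 158 in the Ctrl libraries. The unit means were 0.538 ± 0.129 FPKM for Ctrl, against 0.919 ± 0.185 for cKO (SD, n = 3 each). The gene was picked because its libraries separate, which fixes the two-sided exact permutation p at 0.1, so that p adds no support. Without the filter, the units of 9.62% of all genes did not overlap. Without a filter on low values the limma p was 0.195 (adjusted 0.820).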

How the results depend on the processing

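With 3 against 3 units the test called 0 of 200 simulated differences of 1 on the log2 scale, so misses are uninformative. The count of 0 called members held under 21 alternatives for genotype, 9 for S2 against S1 and 7 for the interaction. Over the alternatives Nr3c1, Nr3c2, Hsd11b1 and Fkbp5 kept their direction, from 0.02 to 0.19, 0.18 to 0.35, 0.08 to 0.76 and -1.14 to -0.23 on the log2 scale, where Fkbp5 reached -1.14 with a pseudocount of 0.1. Dio2 reversed under upper quartile scaling (0.0025) and ran from -0.16 to 0.021 when each A number was left out. Over the same fits Thrb ran from -0.041 to 0.19 and Slc7a5 from -0.14 (without A8) to 0.41. Leaving out each A number gave 1 to 5 tested members without overlap and 0 to 1 called genes. Without A2 there were 3 (Nr3c1, Nr3c2 and Hsd11b1; 22.4% of all tested genes), without A8 2 (Nr3c2 and Thra; 33.4%; Fkbp5, not tested, also separated) and without A10 5 (Nr3c2, Tsc22d3, Hsd11b1, Slco1c1 and Thra; 21.8%). Tested members without overlap were 3 under upper quartile scaling (Nr3c1, Nr3c2 and Hsd11b1; 13.7% of all tested genes) and 2 in S2 libraries alone (Nr3c2 and Hsd11b1; 12.9%). Adjusted for the oligodendrocyte score, 3 induced genes were lower, and the differences of Tsc22d3 (0.22), Slco1c1 (-0.13), Thra (0.21), Thrb (-0.0072), Hsp90ab1 (0.26), Srd5a1 (0.36), Cyp7b1 (-0.68), Sgk1 (0.28), Errfi1 (0.18), Per1 (0.24) and Thrsp (-0.28) reversed. The oligodendrocyte score separated the groups without overlap, so these adjusted differences can hardly be parted from genotype. With the immediate-early score, Abcb1a reversed (0.29). Treating the A number as random, 112 genes and 1 pathway gene, Mbp, were called, and with the replicate block added 80 genes and again 1 pathway gene, while 0 members were called in either; the block changed no other call. Both of these fits entered all 12 libraries with 1 correlation for all genes (0.915 without the block). The S1 and S2 libraries of an A number thus count as partly separate samples in a comparison of 3 against 3 units. The added calls are not read as results. What moved the other differences was not tested.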

Other observations

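The standard deviation on the log2 scale was smaller in cKO for 6 of the 8 tested members (75%), where it was for 66.9% of all tested genes. For Nr3c1 it was 0.16 in Ctrl and 0.03 in cKO, and for Nr3c2 it was 0.09 and 0.01. Hsd11b1 (0.22 and 0.40) and Thra (0.13 and 0.20) went the other way. The share of members is near that of all genes, and it was not tested.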
